A study of Mus musculus with 2 samples.

Results

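The Trim genes beside the beta-globin locus of the mouse, namely Trim34a, Trim5, Trim12a, Trim12c, Trim30b, Trim30a and Trim30d, were followed in 2 single-cell RNA-sequencing libraries of spleen cells. They were taken by symbol and are 7 of the 26124 genes of the count matrices. They were chosen by their measured UMI counts over all cells, some of them having looked switched on in 1 library and off in the other, so that difference between the libraries is given here as a description. The question was whether that difference was found in every cell type or in some of them.

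TRIM proteins carry a RING domain with ubiquitin ligase activity, B-boxes and a coiled coil, and many of them add a B30.2 (SPRY) domain that recognises the target. Trim5, Trim12a and Trim12c are among the mouse relatives of primate TRIM5alpha, which binds the capsid of incoming retroviruses. Trim30a is induced by interferon and by Toll-like receptor ligands and is known to damp NF-kB signalling through TAB2 and TAB3 and to restrain the NLRP3 inflammasome. Genes of this cluster differ in number between rodent lineages, and olfactory receptor genes lie between it and the beta-globin genes.

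The libraries came from spleens of untreated mice aged 12 to 16 weeks, 1 mouse each, after erythrocyte lysis and enrichment of macrophages with beads coated with an antibody to F4/80, and were made with 10x Genomics Chromium 3′ chemistry. The SCD mouse (Berkeley model of sickle cell disease) is labelled homozygous for Hbatm1Paz, homozygous for Hbbtm1Tow and homozygous for Tg(HBA-HBBs)41Paz, the human transgene with the sickle beta-globin. The control, called wild-type here after the study, is labelled homozygous for Hbatm1Paz, heterozygous for Hbbtm1Tow and hemizygous for the same transgene, so that both mice carry the alpha-globin deletion and the transgene. Controls were littermates, and the model is not on a single inbred background.

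With 1 mouse per genotype no test between genotypes was possible, no p-value is given, and genotype, mouse and library cannot be told apart. Values are CPM, the unique molecular identifier (UMI) counts of a gene summed over cells per 1000000 UMIs, with 95% exact Poisson intervals, and ratios have 95% exact binomial intervals. These intervals cover counting error only. Because the chemistry counts molecules at their 3′ end, no length correction was applied. After the filter on cells 19418 cells with 107315865 UMIs remained in the wild-type-labelled library and 12279 cells with 64890040 UMIs in the SCD-labelled library, and the median cell had 4115.5 and 4571 UMIs. The libraries shared 107 cell barcodes, 65 of them kept in both.

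The beta-globin genes went against both labels. Hbb-bs was at 57.0 CPM in the wild-type-labelled library and at 10551 CPM in the SCD-labelled library, whose label gives a homozygous deletion of the locus. In erythroid cells the levels of Hbb-bs were 152 and 63767 CPM, and those of Hbb-bt were 249 and 19532 CPM. Hba-a1, deleted in both mice by the labels, was at 10915 and 3531 CPM over all kept cells. The libraries are therefore called by their labels only, and no direction given here should be read as that of a genotype.

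The members lay on chromosome 7 between bases 104244457 and 104507849 of GRCm38 (GENCODE M21), at 416.4 kb (Trim34a) to 641.9 kb (Trim30d) from the pair Hbb-bt and Hbb-bs. Trim34a is on the plus strand and the other members are on the minus strand. RefSeq promoters (GRCm38.p6, from 250 bases before to 50 bases after the start) were found for all 7 members. The first set shown is Trim5, Trim12a and Trim12c, because these have closely similar promoters and yet differed in the libraries: Trim5 and Trim12a shared 241 of 241 aligned bases in local alignment, and each shared over 94% with Trim12c (94.2% of 278 columns for Trim5 and 94.6% of 261 for Trim12a). Each is printed 5′ to 3′ on the strand of its gene, and capitals mark the match to the core of the interferon-stimulated response element (GAAA, 2 bases of any kind, then GAAA again), here read on the opposite strand.
Trim5 (chr7:104288057-104288356, minus strand): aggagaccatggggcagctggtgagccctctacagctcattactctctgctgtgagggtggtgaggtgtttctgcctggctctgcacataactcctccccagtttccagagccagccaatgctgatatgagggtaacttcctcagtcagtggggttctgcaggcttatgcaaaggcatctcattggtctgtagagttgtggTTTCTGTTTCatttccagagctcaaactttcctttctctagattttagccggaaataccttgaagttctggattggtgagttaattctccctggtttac
Trim12a (chr7:104315446-104315745, minus strand): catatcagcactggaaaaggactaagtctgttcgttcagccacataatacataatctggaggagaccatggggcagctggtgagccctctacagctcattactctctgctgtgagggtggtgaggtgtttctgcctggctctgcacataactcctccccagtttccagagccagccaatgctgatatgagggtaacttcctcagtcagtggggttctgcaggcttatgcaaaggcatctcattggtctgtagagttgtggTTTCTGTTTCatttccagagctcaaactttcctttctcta
Trim12c (chr7:104353300-104353599, minus strand): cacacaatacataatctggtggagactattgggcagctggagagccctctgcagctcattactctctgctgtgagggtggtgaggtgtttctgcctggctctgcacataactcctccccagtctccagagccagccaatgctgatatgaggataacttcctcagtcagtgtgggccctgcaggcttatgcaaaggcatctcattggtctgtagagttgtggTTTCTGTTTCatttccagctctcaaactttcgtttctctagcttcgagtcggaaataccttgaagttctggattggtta

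The second set is the pair Trim30a (first RefSeq promoter) and Trim30d, neighbours of which 1 was abundant in both libraries and the other was not. Their promoters shared 93.9% of 294 aligned columns, with the same marks.
Trim30a (chr7:104465144-104465443, minus strand): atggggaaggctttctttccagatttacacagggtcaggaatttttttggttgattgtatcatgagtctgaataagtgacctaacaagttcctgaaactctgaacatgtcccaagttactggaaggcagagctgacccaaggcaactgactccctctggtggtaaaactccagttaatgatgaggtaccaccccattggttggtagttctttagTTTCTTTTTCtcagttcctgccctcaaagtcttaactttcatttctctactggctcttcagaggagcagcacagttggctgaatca
Trim30d (chr7:104507800-104508099, minus strand): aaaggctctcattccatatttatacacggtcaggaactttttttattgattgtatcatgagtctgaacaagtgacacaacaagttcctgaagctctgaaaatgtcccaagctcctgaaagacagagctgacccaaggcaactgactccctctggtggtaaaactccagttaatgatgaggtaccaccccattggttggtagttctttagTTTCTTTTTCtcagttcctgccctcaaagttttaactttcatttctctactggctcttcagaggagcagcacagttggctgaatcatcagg

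The letters of this core, searched on both strands, were in a promoter of 6 of the 7 members, all but Trim30b. The only RefSeq promoter of Trim30b (chr7:104358597-104358896) lies inside its gene, which spans 104355382 to 104369884 on the minus strand. The sequence before the annotated start of Trim30b was therefore not searched. They were in 3.44% of 32851 RefSeq promoters of the same length and in a promoter of 26 of the 44 genes of an interferon list that had one (59.1%). The letters TTCNNNGAA, the core of the gamma-activated site, searched on both strands, were in no promoter of the 7 members and in 8.30% of all promoters. The letters were present in Trim12c and Trim30a as well as in Trim34a, Trim5, Trim12a and Trim30d.

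Over all kept cells the group split in 2. Trim34a, Trim5, Trim12a, Trim30b and Trim30d were at 3.72 CPM or less in the wild-type-labelled library and at 32.5 CPM or more in the SCD-labelled library, whereas Trim12c and Trim30a were abundant in both. Past 4-fold higher were 5 of 7 members, beside 1.45% of the 13015 genes with at least 100 UMIs. This is the contrast that chose the members, and nothing is read from the share. The median log2 ratio of all genes tested was 0.18.

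Trim5, a relative of primate TRIM5alpha, showed the widest gap. It was at 0.0932 CPM (95% interval 0.0447 to 0.171) in the wild-type-labelled library, which is 10 UMIs in 10 cells, and at 55.2 CPM (53.4 to 57.1) in the SCD-labelled library, with 3584 UMIs. The ratio was 593-fold (322 to 1237). Trim12a, its close relative, was at 1.95 CPM and 83.3 CPM, 42.8-fold apart (37.2 to 49.3). Trim34a, at the end of the cluster nearest to the globin genes, was at 2.74 and 47.6 CPM, 17.4-fold apart (15.4 to 19.7).

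Of the Trim30 genes, Trim30d was at 0.960 CPM in the wild-type-labelled library and 35.7 CPM in the SCD-labelled library, 37.2-fold apart (30.5 to 45.7). Trim30b was at 3.72 and 32.5 CPM, the smallest ratio of the 5 at 8.75-fold (7.85 to 9.76). Trim30a, the regulator of Toll-like receptor signalling, was at 126 and 203 CPM, a 1.62-fold ratio (1.58 to 1.66) that was the next below the 4-fold threshold. Trim12c, also a relative of TRIM5alpha, was at 152 and 172 CPM, a 1.13-fold ratio (1.10 to 1.15). Its log2 value of 0.17 became -0.01 when the median ratio of all genes was set to 0.

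The makeup of the cluster's RNA therefore differed. Trim12c and Trim30a together gave 96.7% of the 30839 member UMIs of the wild-type-labelled library and 59.6% of the 40831 member UMIs of the SCD-labelled library. Trim12a alone gave 0.678% and 13.2%, and Trim5 gave 0.0324% and 8.78%.

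The cells fell into 24 clusters, made without the members, the genes within 5 Mb of the beta-globin genes and the hemoglobin genes, and 20 of the clusters could be named from markers. In all, 9 classes had at least 50 cells in each library, and the neutrophil class, with 276 and 14 cells, was not compared. The 4 unnamed clusters, with 2442 and 4007 cells (12.6% and 32.6% of the libraries), entered no class and are not in the class values below. The macrophage class was held mostly by different clusters in the 2 libraries. Clusters 1 and 4 gave 4994 of its 5037 cells in the wild-type-labelled library, and clusters 22 and 23, led by Rgs1 and Hbq1a, gave 2206 of its 2248 cells in the SCD-labelled library. Cluster 4 also passed cDC2 markers and was led by Ifitm1 and Cd7. The Ly6c-high monocyte class mixed clusters 6, 7 and 18 in unlike proportions. Its cluster 7, with 774 and 58 cells, was led by Retnla and Thbs1 and also passed 10 of 12 erythroid markers. The macrophage and erythroid class, with 4219 and 93 cells, also mixed its clusters in unlike proportions. None of its clusters had 50 cells in each library. Its cluster 8, with 807 and 47 cells, passed 11 of 12 erythroid markers. The T lymphocyte class also held the eosinophil genes Prg2 and Epx among its leading genes, and the cDC2 class, made of 1 cluster, was led by cell cycle genes.

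**Figure D1:**
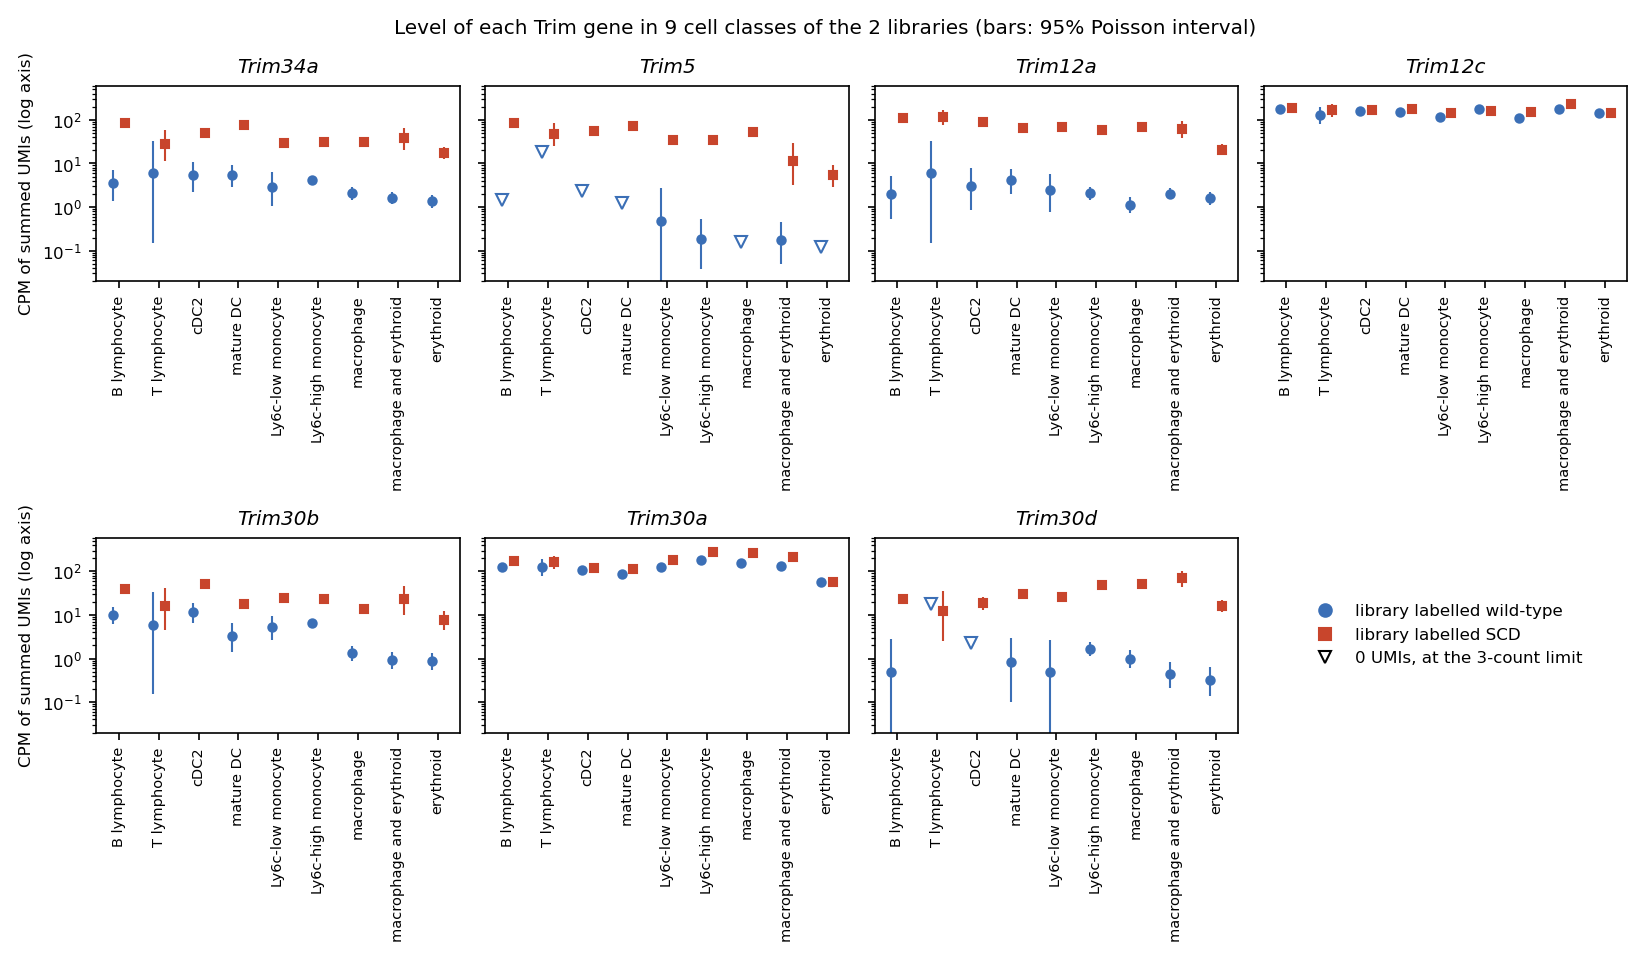
Level of each Trim gene in CPM of summed UMIs (log axis) in the 9 cell classes, with circles for the wild-type-labelled library, squares for the SCD-labelled library, bars for the 95% Poisson interval and open triangles for 0 UMIs drawn at the limit of 3 counts. The circles and squares lie close together for Trim12c and Trim30a and apart for the other 5 genes, as in macrophages, where Trim12a was at 1.14 and 69.7 CPM.

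For the 5 members, 37 pairs of a class and a member had at least 30 UMIs in both libraries together, and 35 of the 37 were past 4-fold higher. No pair of Trim5 or Trim30d had 30 UMIs in the wild-type-labelled library, so these reached the minimum through the SCD-labelled library. Most pairs of Trim34a, Trim12a and Trim30b were also under 30 UMIs in the wild-type-labelled library. The exceptions for Trim34a were Ly6c-high monocytes, macrophages, the macrophage and erythroid class and erythroid cells. For Trim12a they were the same classes without macrophages, and for Trim30b Ly6c-high monocytes alone. The 5 members had been picked out as higher in the SCD-labelled library over all cells. The count is a description, and nothing is read from it. Of all genes tested in a class, those past 4-fold higher made up 0.385% in B lymphocytes, 0.83% in T lymphocytes, 0.215% in cDC2, 0.351% in mature dendritic cells, 0.694% in Ly6c-low monocytes, 0.336% in Ly6c-high monocytes, 1.51% in macrophages, 4.72% in the macrophage and erythroid class and 0.321% in erythroid cells. The other 2 pairs were Trim30b in B lymphocytes (3.96-fold, 2.52 to 6.56) and in Ly6c-high monocytes (3.55-fold, 2.82 to 4.50). No pair of Trim12c (0 of 9) or Trim30a (0 of 9) was past 4-fold.

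Trim5 had 0 UMIs in 6 of the 9 classes of the wild-type-labelled library. The upper ends of the intervals were 0.146 CPM in erythroid cells and 0.191 CPM in macrophages. They were 1.53 CPM in mature dendritic cells, 1.83 in B lymphocytes, 2.83 in cDC2 and 22.0 in T lymphocytes, so in these shallower classes a count of 0 does not show absence. In macrophages Trim5 was at least 335-fold higher in the SCD-labelled library, at 52.1 CPM there, when 0 is taken to allow 3 counts. The counts of Trim5 in macrophages were 0 and 528. In B lymphocytes they were 0 and 764 (at least 58.0-fold), and in mature dendritic cells 0 and 268 (at least 59.5-fold). In Ly6c-high monocytes they were 3 and 340, with levels of 0.182 and 34.5 CPM. Erythroid cells had 0 UMIs in 3481 cells and 13 UMIs in 364 cells, under the 30 UMIs set for a pair.

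Trim12a was between 1.14 and 4.14 CPM in the 8 classes of the wild-type-labelled library that had enough UMIs, and between 20.8 and 113 CPM in the same classes of the other library. Its smallest ratio, 13.1-fold (8.47 to 20.5), was in erythroid cells, at 1.59 and 20.8 CPM, and its highest, 61.1-fold (40.0 to 98.1), in macrophages. Trim34a ranged from 1.39 to 5.39 CPM in the wild-type-labelled library and from 17.4 to 84.9 CPM in the SCD-labelled library. Its ratios ran from 7.56-fold in Ly6c-high monocytes to 24.4-fold in B lymphocytes.

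Trim30d was at or under 1.70 CPM in every class tested of the wild-type-labelled library. In the SCD-labelled library it was at 16.2 CPM (erythroid) to 69.8 CPM (macrophage and erythroid). The latter value rests on 24 UMIs in 93 cells (44.7 to 104 CPM). In clusters tested singly, unnamed ones included, Trim30d reached 8.80 CPM in the wild-type-labelled library, and its smallest ratio was 4.96-fold. The smallest ratio of Trim30b in clusters was 2.83-fold. The 103 UMIs of Trim30d in the wild-type-labelled library were not spread like those of Trim5. In 6 cells with at least 3 Trim30d UMIs lay 25 of them, up to 7 in 1 cell. Of these cells, 4 were in cluster 3, an unnamed cluster led by Lyz1 and Retnla. Those 6 cells held 35 UMIs of Trim30a, 8 of Trim12c, 0 of Trim5, 0 of Trim12a and 1 of Hbb-bs.

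Trim30b was the member least low in the wild-type-labelled library. Among the classes there it reached 11.5 CPM in cDC2 and 9.94 CPM in B lymphocytes, against 0.873 CPM in erythroid cells and 1.35 CPM in macrophages. In the SCD-labelled library cDC2 were again the highest class at 50.8 CPM. B lymphocytes were at 39.3 CPM, macrophages at 13.8 CPM and erythroid cells at 7.65 CPM. The ratio was thus narrower in cDC2 (4.41-fold, 2.54 to 8.20) than in macrophages (10.2-fold, 6.71 to 16.2), with intervals that overlapped. In clusters tested singly, unnamed ones included, Trim30b reached higher levels than in any class. These were 22.7 CPM in the wild-type-labelled library and 64.2 CPM in the SCD-labelled library.

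**Figure D2:**
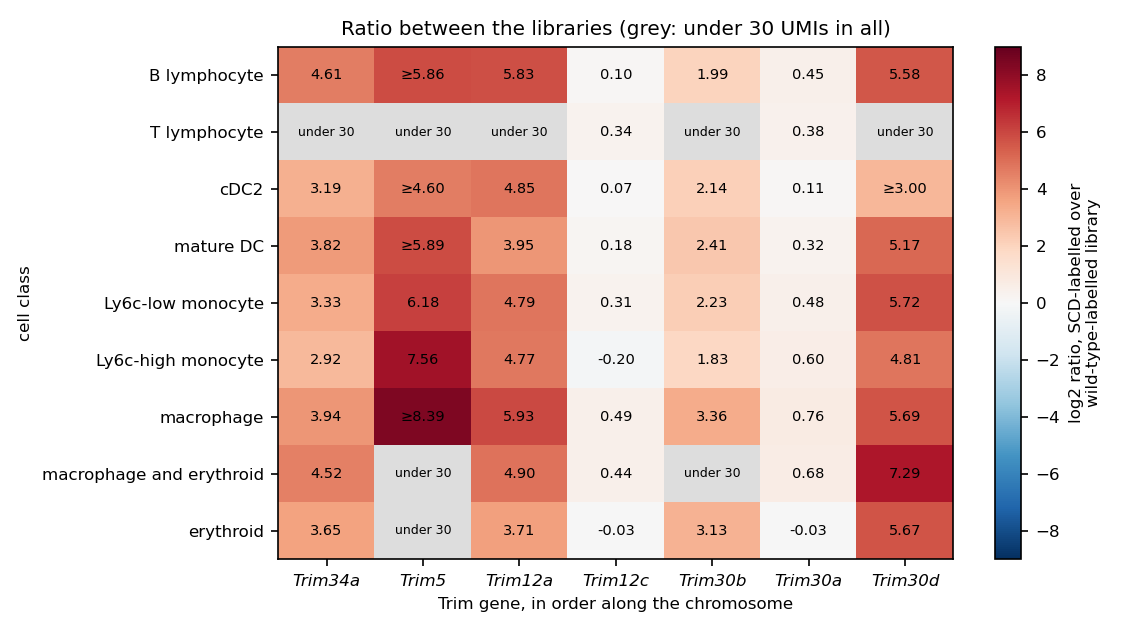
The log2 ratio of the SCD-labelled library over the wild-type-labelled library for each cell class (rows) and each Trim gene in chromosome order (columns), with a greater-or-equal sign where the wild-type-labelled count was 0. The columns of Trim12c (-0.20 to 0.49) and Trim30a (-0.03 to 0.76) are pale, and each filled cell of the other columns is at 1.83 or above.

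Trim30a was under 2-fold apart between the libraries in each class, and in 6 of 9 classes the interval of its log2 ratio lay above 0. It was at 182 and 276 CPM in Ly6c-high monocytes, at 159 and 270 CPM in macrophages and at 58.0 and 57.0 CPM in erythroid cells. Its ratio was highest in macrophages (1.69-fold, 1.61 to 1.78) and lowest in erythroid cells (0.982, 0.817 to 1.17). Its order of classes in the SCD-labelled library had Ly6c-high monocytes and macrophages at the top, whose intervals overlapped, and erythroid cells last and apart from mature dendritic cells at 111 CPM.

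Trim12c was the most even of the group. In the SCD-labelled library it ran from 142 CPM in erythroid cells to 236 CPM (81 UMIs) in the macrophage and erythroid class. There every class overlapped the next in its interval. In the wild-type-labelled library it ran from 108 CPM in macrophages to 182 CPM in Ly6c-high monocytes. Its log2 ratio was 0.49 (0.39 to 0.59) in macrophages and -0.20 (-0.29 to -0.11) in Ly6c-high monocytes. In the clusters of the Ly6c-high class taken singly it was 0.05 (-0.14 to 0.24) in cluster 6, 0.26 (-0.02 to 0.52) in cluster 7 and -0.10 (-0.23 to 0.03) in cluster 18, so the lower value was found in none of them with an interval below 0.

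Within the SCD-labelled library, a comparison that the choice of members did not use, the 5 members did not keep 1 ratio to Trim30a. Trim34a UMIs were 11.3% of Trim30a UMIs in Ly6c-high monocytes and 11.8% in macrophages, but 49.2% in B lymphocytes and 68.3% in mature dendritic cells. Trim5 was at 5.41% in the macrophage and erythroid class, from 4 UMIs, at 12.5% in Ly6c-high monocytes and at 66.3% in mature dendritic cells. Trim12a was at 25.8% in macrophages and 75.2% in cDC2. Trim30d was at 13.8% in B lymphocytes, its lowest among classes with at least 30 UMIs, and at 28.4% in erythroid cells. Trim30a itself ran from 57.0 CPM in erythroid cells to 276 CPM in Ly6c-high monocytes, so these percentages follow its level too. By CPM, B lymphocytes were highest for both Trim34a (84.9) and Trim5 (86.4), with mature dendritic cells next and overlapping. Trim5 was at 55.7 CPM (45.4 to 67.5) in cDC2 and 52.1 CPM (47.8 to 56.7) in macrophages, and Trim12a was at 88.6 and 69.7 CPM.

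**Figure D3:**
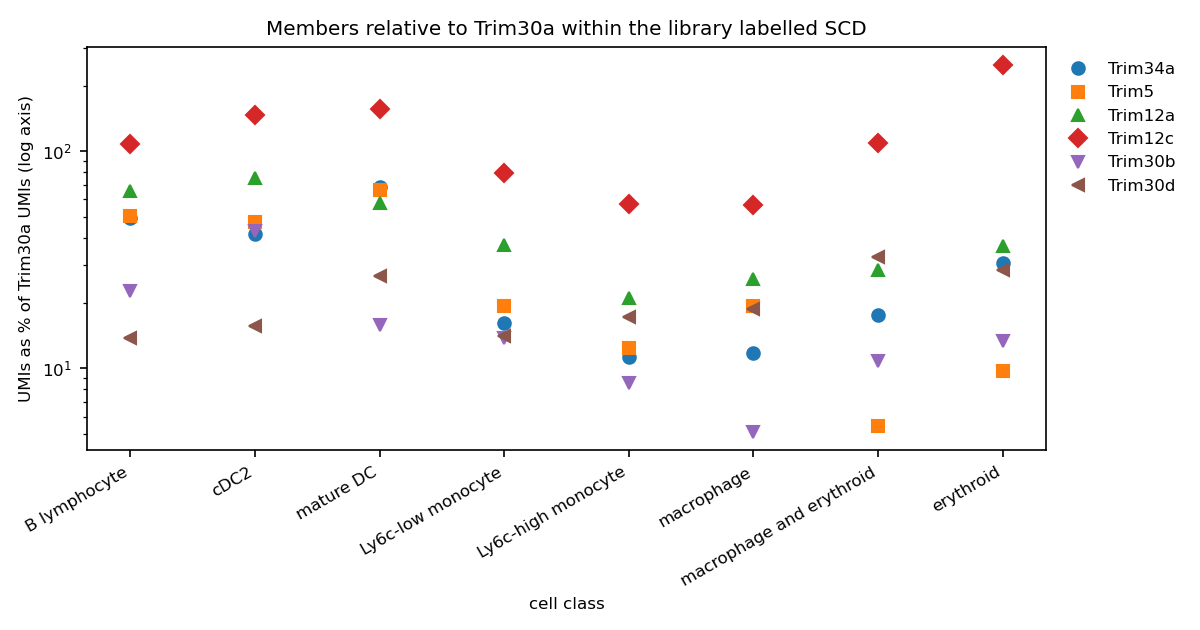
UMIs of each Trim gene as a percentage of the Trim30a UMIs of the same class (log axis) in 8 classes of the SCD-labelled library, 1 symbol per gene and class, without the T lymphocyte class, which had 40 Trim30a UMIs. As percentages of Trim30a, Trim34a and Trim5 stand high in B lymphocytes, cDC2 and mature dendritic cells and lower in monocytes and macrophages. Trim30a itself was at 111 to 173 CPM in the former and at 181 to 276 CPM in the latter.

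Trim12c, in contrast, kept a like ratio to Trim30a in both libraries for some classes. It was at 248% of Trim30a in erythroid cells of the wild-type-labelled library and at 249% in those of the SCD-labelled library, and at 151% and 146% in cDC2. In Ly6c-high monocytes it was at 99.9% and 57.1%. Over the 9 classes of the SCD-labelled library, Pearson's r of log2(CPM + 1) was 0.83 between Trim5 and Trim12a, 0.73 between Trim5 and Trim34a, 0.66 between Trim30d and Trim30a and 0.02 between Trim5 and Trim12c. These are descriptions over classes that share 1 library.

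Of genes outside the group, those most like Trim30a over the 18 groups made of class and library were Neurl3 (r = 0.91), Txnip (0.91) and Stx16 (0.90), and over the 9 classes of the SCD-labelled library Arfip1 (0.96), Ccny (0.95) and Srebf1 (0.95). For Trim12c they were Khnyn (0.74), Tmem131l (0.67) and Clk1 (0.67) over the 18 groups, and 4930522L14Rik (0.91), Zgpat (0.89) and Wdr77 (0.87) over the 9 classes.

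Counted per cell, after thinning each cell to 1000 UMIs, 163 of 18386 cells of the wild-type-labelled library (0.887%, 95% exact binomial interval 0.756 to 1.03) and 2690 of 11998 cells of the SCD-labelled library (22.4%, 21.7 to 23.2) had a UMI of any of the 5 members. Left out as shallower were 1032 and 281 cells. The shares for Trim12c or Trim30a were 24.6% and 29.5%. By class, the share with any of the 5 was 2.51% and 31.6% in B lymphocytes, 0.368% and 16.9% in macrophages, 1.18% and 25.6% in mature dendritic cells and 0.463% and 4.96% in erythroid cells. Trim5 alone was found in 2 and 642 of these cells (0.0109% and 5.35%) and Trim12a in 38 and 1019 (0.207% and 8.49%). Before thinning Trim12a was found in 1.06% and 29.8% of all kept cells.

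Free RNA was present in both libraries. In thinned B lymphocytes, which should lack them, C1qa was found in 35.5% and 22.9% of cells and Cd5l in 24.0% and 4.61%. Over all kept cells of the wild-type-labelled library C1qa was at 2147 CPM and Cd5l at 1666 CPM, far above the 5 members. Their shares therefore do not gauge the free RNA of the members. The shares of the 5 members in the wild-type-labelled library are small and are not read as expression, and the part of free RNA in them was not tested. In the SCD-labelled library C1qa was at 646 CPM in erythroid cells and 3264 CPM in macrophages, and Vcam1 at 1499 and 7677 CPM. Trim5 was at 5.53 and 52.1 CPM in the same classes, Trim12a at 20.8 and 69.7 CPM and Trim30d at 16.2 and 50.7 CPM, and the part of free RNA in the erythroid values of the members was not tested. Of the 1015 UMIs of the 5 members in the wild-type-labelled library, 1, of Trim30b, lay in its 79 kept cells whose barcode was also in the other library, which held 0.447% of its UMIs.

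The neighbourhood of the beta-globin pair was covered unevenly by genes with enough UMIs. On the side away from the Trim genes, 0 of the 59 genes within 1 Mb had 100 UMIs. From 2 to 5 Mb on the side of the Trim genes 5 of 76 did. The reach of the pattern was therefore not measured on the first stretch and little measured on the second. Within 2 Mb of the beta-globin pair 55 genes had at least 100 UMIs, and 17 were past 4-fold, 7 higher and 10 lower, beside 4.94% of all genes in either direction. The 7 higher were the 5 members, Hbb-bs and Hbb-bt. Of the 44 genes that were neither member nor Hbb gene, 0 were higher and 10 lower. Around the alpha-globin genes on chromosome 11, 4 of 24 genes within 2 Mb were past 4-fold, all lower, beside 3.49% of all genes lower. Of the 944 genes of chromosome 7 beyond 5 Mb 32 were past 4-fold (3.39%). These counts are over all kept cells, of which erythroid cells made up 17.9% and 2.96%. The part of this difference in the counts was not tested.

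**Figure D4:**
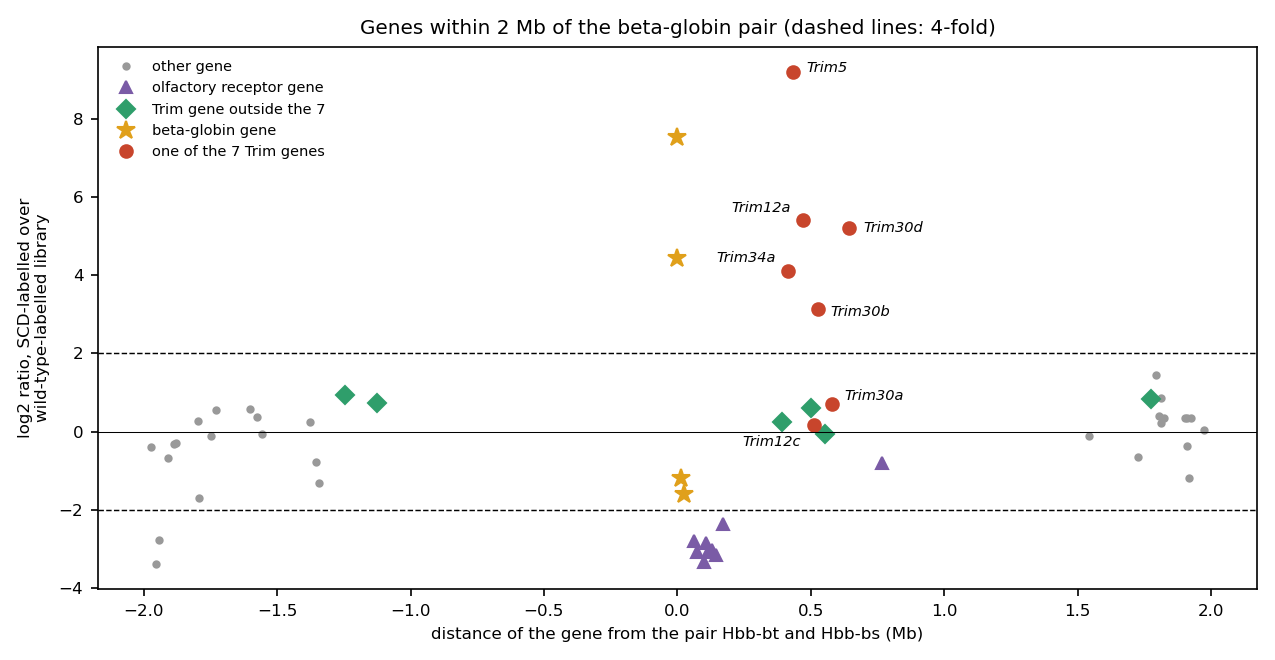
The log2 ratio of each gene with at least 100 UMIs (1 symbol each) against its distance from the beta-globin pair in Mb, with dashed lines at 4-fold. The 5 higher members stand between 3.13 and 9.21, while Trim12c, Trim30a and the green Trim genes among them stand between -0.07 and 0.69. The olfactory receptor genes near the globin genes stand below -2.

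Inside the cluster, 2 further Trim genes lay between members and stayed low in both libraries. Trim34b, between Trim12a and Trim12c, had 80 and 73 UMIs (0.745 and 1.12 CPM), and Trim30c, between Trim30b and Trim30a, had 433 and 249 UMIs (4.03 and 3.84 CPM). The nearest tested gene toward the globin genes was Trim6 at 390.7 kb, at 3.30 and 3.93 CPM, and on the far side Olfr655 at 767.2 kb, at 0.811 and 0.462 CPM. Going along the chromosome, ratios past 4-fold and under it alternated: Trim34a, Trim5 and Trim12a were past 4-fold, Trim34b and Trim12c were not, Trim30b was, Trim30c and Trim30a were not, and Trim30d was.

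The lower genes were Folr2 and Folr1, nearly 2 Mb away on the other side, and 8 olfactory receptor genes or pseudogenes at 61.4 to 170.6 kb, namely Olfr64, Olfr65, Olfr631, Olfr632, Olfr633, Olfr634-ps1, Olfr635 and Olfr638. Olfr65 was at 170 and 19.9 CPM and Olfr633 at 99.4 and 11.8 CPM. Erythroid cells gave 61.2% and 50.6% of the Olfr65 UMIs, and this class made up 17.9% and 2.96% of the cells. Within erythroid cells Olfr65 was at 443 and 279 CPM (log2 ratio -0.67, -0.79 to -0.56) and Olfr633 at 278 and 151 CPM (-0.88, -1.03 to -0.72), so neither was past 4-fold there. Beyond the 2 Mb, Gvin1, a very large GTPase gene at 2328.5 kb, had 5 and 219 UMIs (72.4-fold), a gene that was chosen after its values had been seen. Of the 5 genes tested from 2 to 5 Mb on the side of the Trim genes, 1 was past 4-fold. From 2 to 5 Mb on the other side 5 of 39 were, 2 higher and 3 lower, beside 4.94% of all genes.

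Genes read at the same 3′ ends can lend or lose counts. Of the 91-base windows in the last 500 bases of their transcripts, 15.6% of those of Trim5 were also found in Trim12c, 14.4% of those of Trim34a in Trim34b, 17.7% of those of Trim30a in Trim30d and 14.4% of those of Trim30d in Trim30a. For Trim12a and Trim12c the share was 1.16% and 1.22%, and for Trim30b it was 0%. Of the windows of Trim34b, which is not a member, 35.2% were found in Trim34a, the largest share. Values of Trim34a, Trim34b, Trim5, Trim30a and Trim30d are to that extent uncertain. The part of shared sequence in the low counts of the wild-type-labelled library, and in those of Trim34b in both libraries, was not tested.

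The rest of the Trim family is listed beside the 5 members, which had been picked out as higher in the SCD-labelled library. Of 61 other Trim genes in the matrices 36 had at least 100 UMIs. Past 4-fold higher were 0 of them, beside 1.45% of all genes, and 3 were past 4-fold lower, beside 3.49%. No contrast with the 5 members is read from these counts. The median log2 ratio of the other Trim genes was 0.23 beside 0.18 for all genes. The 3 lower ones were Trim10 (393 and 53.5 CPM) and Trim58 (17.2 and 2.47 CPM), both known from erythroid cells, and Trim29 (1.25 and 0.154 CPM). These values are over all kept cells. Within erythroid cells 0 of 31 other Trim genes were past 4-fold in either direction, beside 2.07% of all genes there. In the other classes up to 2 were past 4-fold lower, and 1 was higher in the macrophage and erythroid class. The other Trim genes with most UMIs were Trim10, Trim59 (246 and 77.3 CPM), Trim56 (178 and 95.5 CPM), Trim41 (92.6 and 79.4 CPM) and Trim8 (82.6 and 85.8 CPM).

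Interferon-stimulated genes had a higher median ratio than all genes. Of 57 genes of the interferon list 50 had a log2 ratio above 0, with a median of 0.79, a 1.73-fold ratio, beside 0.18 for all genes. Past 4-fold higher were 2, Ifi213 (4.69 and 19.4 CPM) and the chemokine gene Cxcl10 (5.00 and 20.7 CPM), beside 1.45% of all genes. Past 4-fold lower were 2, the antiviral genes Isg15 (216 and 41.4 CPM) and Rsad2 (1039 and 222 CPM), beside 3.49% of all genes. These values are over all kept cells, of which erythroid cells made up 17.9% and 2.96%. Within erythroid cells 0 of 54 genes of the list were past 4-fold in either direction, beside 2.07% of all genes there. Past 4-fold lower in a class was 1 gene in cDC2 and 1 in mature dendritic cells, beside 0.25% and 1.51% of all genes there. Past 4-fold higher was 1 gene each in B lymphocytes, Ly6c-high monocytes and Ly6c-low monocytes, beside 0.385%, 0.336% and 0.694% of all genes. In macrophages and in the macrophage and erythroid class 2 genes each were higher, beside 1.51% and 4.72%. Ifitm3, which restricts virus entry, was among the most abundant others (256 and 604 CPM). By class the median ran from 0.14 in T lymphocytes, with 14 genes, to 0.79 in Ly6c-low monocytes. In erythroid cells it was 0.42. Trim30d had 8 and 38 UMIs in these cells and was 50.9-fold apart, and Trim30a was at 58.0 and 57.0 CPM. The part of interferon in these values was not tested.

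**Figure D5:**
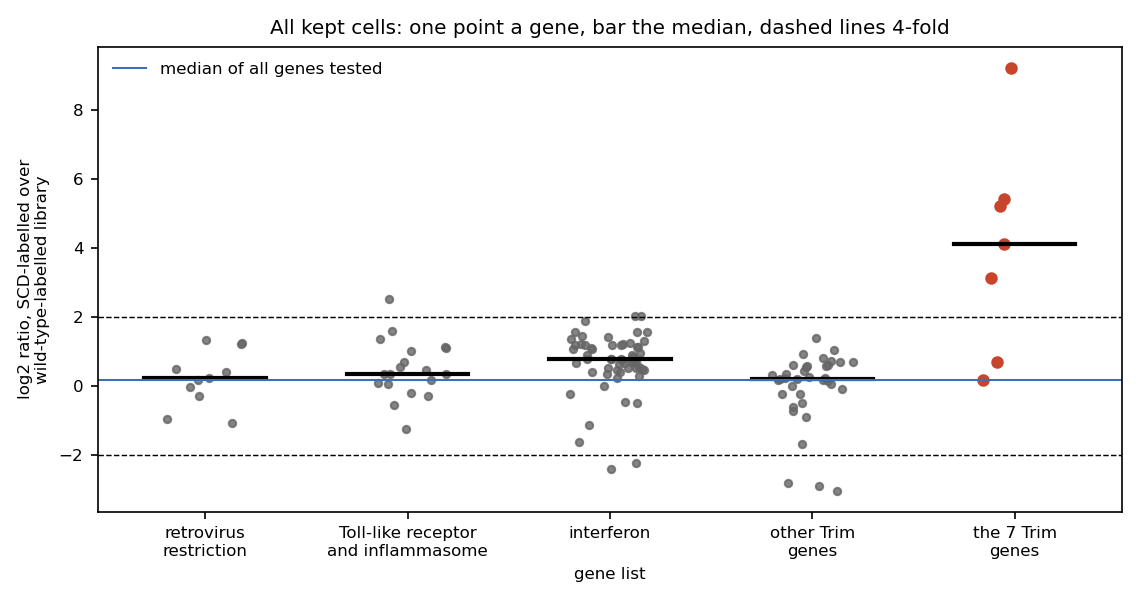
The log2 ratio of the SCD-labelled library over the wild-type-labelled library over all kept cells, 1 point a gene, for 4 gene lists and the 7 Trim genes, with bars for the list medians, a blue line for the median of all genes (0.18) and dashed lines at 4-fold. The members' median was 4.12, and the other lists' medians lie between 0.23 and 0.79.

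Toll-like receptor signalling and the inflammasome are the pathways in which Trim30a acts. Of 19 genes of this list, 1 was past 4-fold higher, Il1b (31.3 and 181 CPM, 5.78-fold), and 0 were lower. The shares of all genes were 1.45% and 3.49%. The median log2 ratio of the list was 0.37. By class, 1 gene of the list was past 4-fold higher in erythroid cells, in macrophages and in the macrophage and erythroid class. In each other class 0 were higher, and 1 was lower in mature dendritic cells. Tab2, Nfkb1 and Nfkbia had most UMIs, at 286 and 369, 247 and 530, and 142 and 315 CPM. Of 11 genes of retrovirus restriction, 0 were past 4-fold in either direction, beside 4.94% of all genes, with a median of 0.24. Samhd1 (514 and 1237 CPM), Ppia (863 and 851 CPM) and Apobec3 (210 and 530 CPM) had most UMIs.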

How the data were processed

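The deposited matrices give each gene's raw UMI counts in every cell barcode, 1 library from 1 mouse in each group. Per the labels and the study's methods, the authors aligned reads to GRCm38.p6 with Cell Ranger 4.0.0, counted UMIs and separated cells from empty droplets; the matrix headers name software 3.1.0. The 24144 and 15442 deposited barcodes held 145953464 and 73986356 UMIs. Following the study, a cell was kept when it had 500 to 5000 genes, less than 15% of its UMIs from mitochondrial genes and less than 30% from ribosomal-protein genes. Kept cells were scaled with scran 1.30.0 and clustered with scanpy 1.11.5 (2000 variable genes, 30 components, 15 neighbours, Leiden resolution 1). Clusters were named from markers with at least 3 detected. Doublets were left in.

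UMIs were summed over cells and divided by the library total. Ratios were called at 4-fold for genes with at least 100 UMIs in both libraries together (30 for a class). Where a library had 0 UMIs of a gene, 3 were allowed for as its upper limit. On simulated counts for all kept cells, with 200 of 13015 genes changed, 100.0% of changes were recovered and 95.4% of intervals held the true ratio. The counts were drawn from the Poisson model that the intervals assume, and every change was 8-fold or more. The simulation therefore checked the calculation only, and it holds no variation between mice or cells. Gene positions came from GENCODE M21 (26013 of 26124 genes matched by Ensembl ID). Promoters came from RefSeq and were aligned locally with Biopython 1.88. The genes named were the members, hemoglobin genes, neighbours and list or other Trim genes past 4-fold or with most UMIs, the nearest tested neighbours that were not, and the 3 genes most like Trim12c and Trim30a. One gene that this rule would name is not reported here. The members and the gene lists were chosen with earlier results of these data known. Dendritic-cell-enriched libraries and amino acid sequences were not analysed here.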

Additional observations from a re-analysis of the deposited data

Results flagged for a closer look

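Trim12c was lower in the SCD-labelled library in Ly6c-high monocytes (log2 ratio -0.20) and higher there in macrophages (0.49). With 1 library per label the difference between these classes was not tested. The macrophage class was held mostly by different clusters in the 2 libraries, the Ly6c-high class mixed its 3 clusters in unlike proportions, and in each of those 3 taken singly the interval of the Trim12c ratio held 0.

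The barcodes that the filter left out, 4726 and 3163 of them, entered no comparison above and held the same 5 genes in the SCD-labelled library. There Trim34a was at 31.3 CPM, Trim5 at 44.3, Trim12a at 61.9, Trim30b at 21.3 and Trim30d at 27.6 CPM. In the left-out barcodes of the wild-type-labelled library the levels were 2.04 CPM for Trim34a, 0.104 for Trim5, 1.24 for Trim12a, 1.99 for Trim30b and 0.699 CPM for Trim30d. Trim12c was at 118 and 132 CPM and Trim30a at 99.1 and 152 CPM in these barcodes.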

How the results depend on the processing

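The number of members past 4-fold was 5 under each of 11 alternatives (filters on cells, doublets, library totals, thinning, minimum UMIs, and calls at 2-fold and 8-fold). Over all 7 members, 35 of the 55 tested pairs of a class and a member were past 4-fold, against 17 of 35 with each cell thinned to 1000 UMIs and 11 of 29 with a minimum of 300 UMIs, settings in which fewer pairs had enough UMIs to be tested. The interferon median of 0.79 became 0.60 with the median log2 ratio of all genes set to 0. The 3 other Trim genes past 4-fold became 6 at 2-fold and 1 at 8-fold. Neighbourhood calls ran from 13 to 23 around 17. Of the other alternatives for counts and the interferon median, 54 left the value within 1.5 times or within its counting interval. With a single mouse per label, no replicate could be left out, and the depth of the smallest classes (58 and 80 T lymphocytes) did not reach 30 UMIs for any of the 5 members. No paired analysis was possible because each group held 1 sample.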
